A study of Mus musculus with 10 samples.

Results

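The cytosolic ribosomal protein genes were taken as all rows whose symbol has the form Rps, Rpl or Rplp followed by a number and at most a short suffix, without pseudogene symbols and S6 kinases. This rule was met by 84 of 23240 genes: 32 of the small subunit, 49 of the large subunit and the 3 genes of the P stalk. They were measured in RPKM, read counts scaled by gene length and by the read total of the library, in 10 RNA-seq libraries of mouse bone-marrow progenitors. All mice carried the vav-Cre transgene, which is active in blood cells from the stem cell on. Runx1Δ/Δ mice had floxed alleles of Runx1, a DNA-binding regulator of blood cell development, and Runx1wt/wt mice had intact ones. Cells were gated as lineage-negative, sca-negative, kit-positive, CD41- and CD105-, and divided by CD16/32 and CD150. The 5 groups were Runx1-deleted XMP (CD16/32+ CD150+), a population sorted from Runx1-deleted marrow alone, Runx1-deleted GMP and wild-type GMP (granulocyte-macrophage progenitors, CD16/32+ CD150-), and Runx1-deleted MEP and wild-type MEP (megakaryocyte-erythroid progenitors, CD16/32- CD150+). Each group held 2 libraries. The labels state neither age nor sex nor how many animals stand behind a library, so p-values measure only the spread between these libraries.

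A ribosome holds 1 copy of nearly every ribosomal protein, so cells make the set in balanced amounts. In mammals most of these mRNAs begin with a C followed by a run of pyrimidines, the terminal oligopyrimidine (TOP) tract, through which mTOR signalling controls their translation. Bone marrow is sensitive to shortage of single ribosomal proteins: Diamond-Blackfan anemia, a failure of red cell production, is caused by loss of 1 copy of one of many of these genes, and loss of RPS14 is part of the human 5q- syndrome. Loss of Runx1 in mouse blood stem and progenitor cells has been linked to lower ribosome biogenesis.

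The starts of 6 of the members called below with the libraries of lanes 4 and 5 alone are printed as RefSeq gives them, 5′ to 3′. With all 10 libraries the same fit called none of them, and lanes 4 and 5 alone also called members not printed here. The bases run from 5 before to 25 from the annotated start (GRCm38.p6, whereas the RPKM values rest on mm9). Capitals mark the longest run of C or T where it has at least 6 bases.
Rps12, chr10:23787185-23787214, minus strand: cggccaccgccggCCTTTTCCCCTgccgcc
Rpl27, chr11:101442240-101442269, plus strand: cctgtctgctgctcgtgctgctaataaagc
Rpl14, chr9:120571512-120571541, plus strand: TCTCTCTTCTCgctgagcgccgccaacatg
Rpl15, chr14:18270962-18270991, minus strand: gCCTTCTTCCTTTCCTCTggcggcagccat
Rpl13a, chr7:45128721-45128750, minus strand: gacaagaCCTCCTCCTTTCCCaggcggctg
Rps7, chr12:28635929-28635958, minus strand: tccacccacctacttccgctgtccccacct
Rps12, Rpl14, Rpl15 and Rpl13a carried runs of 11, 11, 17 and 14 bases, and the windows of Rpl27 and Rps7 held none of 6. Annotated starts can lie several bases away from the start used in these cells.

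RefSeq promoter windows of 300 bases, 250 before to 50 after the start, were found for 62 members (74 windows). A C and 4 more pyrimidines from the first annotated base stood in 17.6% of member windows, against 2.5% of all 32851 windows. A run of at least 8 C or T near the start was found in 33.8% of member windows, against 10.3% of all. CCGGAAG, a core letter string of ETS factors, was in 33.8% of member windows, against 8.9% of all, and CTCTTTC was in 27%, against 8.2% of all. The RUNX core strings were not more frequent among members: TGTGGT was in 6.8%, against 16.8% of all, and TGCGGT in 5.4%, against 6.5% of all. Motifs were searched on both strands, CTCTTTC can fall within a pyrimidine run, and a match is a description of letters only.

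The targeted gene itself had 85.9 and 78.5 RPKM in XMP, 63.0 and 72.3 RPKM in Runx1-deleted GMP, 28.5 and 26.8 RPKM in wild-type GMP, 41.5 and 36.8 RPKM in Runx1-deleted MEP, and 17.2 and 25.5 RPKM in wild-type MEP. A value over the whole gene does not set the floxed exon apart, so it does not check the deletion, and groups are named as labelled. Read totals worked back from the RPKM values were 20.8 to 54.9 M per library. The 7 GMP genes on a marker list summed to 7659 to 8017 RPKM in Runx1-deleted GMP and 11681 to 11886 RPKM in wild-type GMP, but to 132 to 167 RPKM in XMP, 31.1 to 33.4 RPKM in Runx1-deleted MEP and 39.2 to 51.9 RPKM in wild-type MEP. The 5 megakaryocyte genes had their highest sum in XMP, at 1101 to 1338 RPKM, but one of them, Pf4, had 349 and 157 RPKM in XMP, against 590 and 466 RPKM in wild-type MEP. XMP and Runx1-deleted MEP also differed in other markers: the MEP genes summed to 308 to 419 RPKM in XMP and 731 to 773 RPKM in Runx1-deleted MEP, with Car1 at 46.2 and 16.3 RPKM in XMP and 334 and 375 RPKM in Runx1-deleted MEP. The erythroid genes summed to 196 to 393 RPKM in XMP and 86.8 to 99.6 RPKM in Runx1-deleted MEP. Lymphocyte genes summed to 0.496 to 1.68 RPKM and stromal genes to 0.0709 to 2.23 RPKM over the 10 libraries, with Cd3e listed at 0 in 3 of them. These populations therefore differed in makeup as well as genotype, and in bulk RNA fewer cells of a type and less RNA per cell cannot be told apart. The part of these markers in the results below was not tested.

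The libraries also differed by sequencing lane. Both Runx1-deleted GMP libraries, both Runx1-deleted MEP libraries, XMP 1 and wild-type MEP 2 ran in lane 5, XMP 2 in lane 4, wild-type GMP 1 and wild-type MEP 1 in lane 3 and wild-type GMP 2 in lane 2. The tested members had a median length of 681.5 bp, against 2775 bp for all genes tested. In GMP, lane and genotype cannot be told apart, since no wild-type GMP library shared a lane with a Runx1-deleted one. Results are therefore given for all 10 libraries and for the 7 libraries of lanes 4 and 5 alone. Those 7 hold 1 wild-type MEP library, and lane 5 alone also holds 1 XMP library. Where a group has 1 library, its spread in the test comes from the other groups, and the library is assumed to vary as they do.

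The members made up 22.5% to 36.8% of all RPKM in these progenitors. Their share of the RPKM sum was 22.5% and 22.7% in XMP. In GMP it was 23.9% and 24.2% in the Runx1-deleted libraries and 26.3% and 29.1% in the wild-type ones. In MEP it was 27.4% and 27.8% in the Runx1-deleted libraries and 36.8% and 26.1% in the wild-type ones. XMP had the lowest shares and wild-type MEP 1 the highest, and the wild-type MEP replicates lay farther apart than the other 4 groups did from each other. Within lane 5 the order was XMP 1, the 2 Runx1-deleted GMP libraries, wild-type MEP 2 and the 2 Runx1-deleted MEP libraries. As a share of the reads in genes, which does not give short genes extra weight, members took 7.88% to 8.14% in XMP and 17.7% in wild-type MEP 1. The summed RPKM of the small subunit over that of the large subunit stayed between 0.931 and 1 in all 10 libraries.

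**Figure D1:**
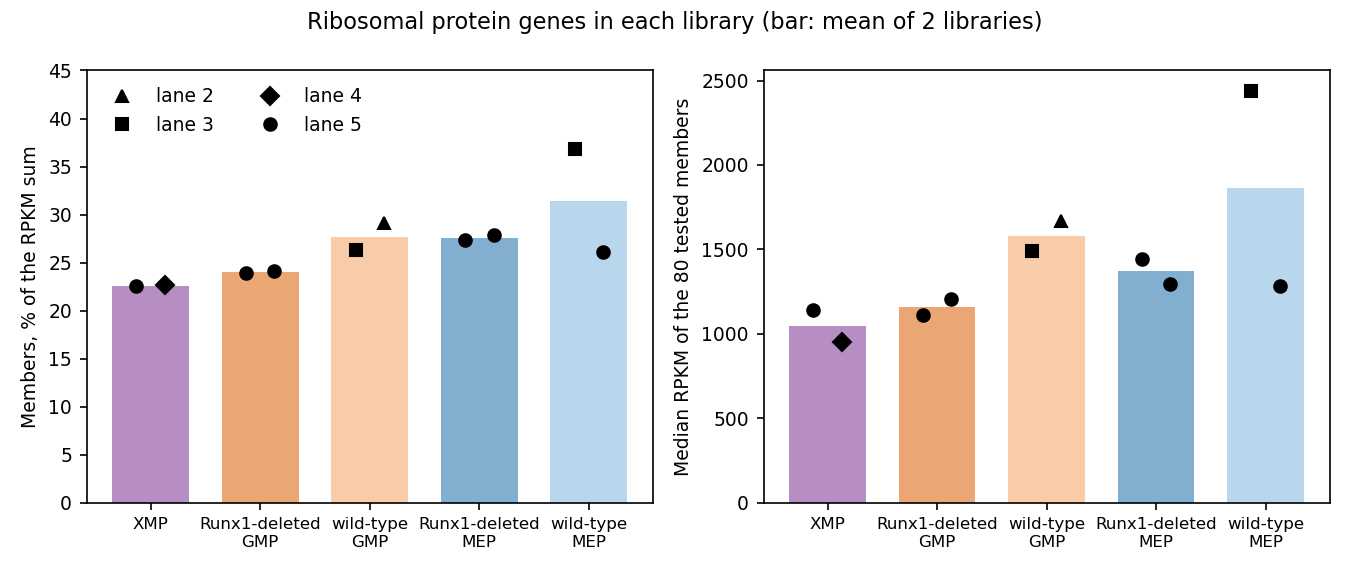
Share of the RPKM sum held by the 84 ribosomal protein genes (left, percent) and median RPKM of the 80 tested members (right), by group. Bars are the mean of 2 libraries, and each symbol is 1 library, its shape giving the lane. XMP libraries sit lowest on the left, at 22.5% and 22.7%, and wild-type MEP 1 sits highest in both panels, at 36.8% and a median of 2437 RPKM.

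Of the 84 members, 4 did not reach 1 RPKM in 2 libraries and were not tested. Rpl10l and Rps4y2 were listed at 0 in all 10 libraries. Rpl3l, a paralog known from striated muscle, reached at most 0.183 RPKM, and Rpl39l, a paralog known from testis, at most 0.536 RPKM. All 80 other members were tested: 31 of the small subunit, 46 of the large subunit and 3 of the P stalk.

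Among the tested members the mean over the 10 libraries had a median of 1403 RPKM, 54 lay at or above 1000 RPKM, and 62 were among the 100 genes with the highest mean. The 3 genes that identify the set were high in every library. Rpl3, which lines the peptidyl transferase centre, had 1476 and 1462 RPKM in XMP, 1779 and 1715 RPKM in Runx1-deleted GMP, 1945 and 1555 RPKM in wild-type GMP, 1891 and 1886 RPKM in Runx1-deleted MEP, and 2326 and 1762 RPKM in wild-type MEP. Rps3, at the mRNA entry site of the small subunit, had 1037 and 956 RPKM in XMP, 1164 and 1169 RPKM in Runx1-deleted GMP, 1452 and 1268 RPKM in wild-type GMP, 1348 and 1236 RPKM in Runx1-deleted MEP, and 1999 and 1181 RPKM in wild-type MEP. For both genes the XMP libraries were the lowest, below every library of the other groups. The highest means belonged to Rps14 (3946 RPKM), Rpl12 (3161 RPKM) and Rpl32 (3137 RPKM).

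Rps14, whose human counterpart is lost in the 5q- syndrome, had 3401 and 3338 RPKM in XMP, 3532 and 3461 RPKM in Runx1-deleted GMP, 4395 and 3306 RPKM in wild-type GMP, 4304 and 3948 RPKM in Runx1-deleted MEP, and 6312 and 3462 RPKM in wild-type MEP. Its wild-type libraries overlapped with the Runx1-deleted ones in both cell types. Rps19, the gene most often mutated in Diamond-Blackfan anemia, had 2254 and 1862 RPKM in XMP, 1914 and 2219 RPKM in Runx1-deleted GMP, 3216 and 2540 RPKM in wild-type GMP, 2707 and 2541 RPKM in Runx1-deleted MEP, and 4991 and 2825 RPKM in wild-type MEP. Both wild-type MEP libraries of Rps19 were above the Runx1-deleted MEP libraries, the lane 5 one by a small margin.

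Of the tested members 8 averaged under 100 RPKM, among them core proteins that every ribosome contains. Rps27 averaged 3.40 RPKM, Rpl14 8.57 RPKM, Rpl29 24.8 RPKM, Rpl15 29.3 RPKM and Rpl10, needed for the last steps of large subunit maturation, 53.2 RPKM. Ribosomal protein genes have many processed pseudogenes, and reads that match several places can be dropped or assigned elsewhere. Cut into windows of 50 bases, the transcripts of the tested members had a median of 40.1% of windows found in no other annotated gene, and 47 of 79 with a matched transcript were under 50%. Low members had both high and low shares: Rpl15 had 69.8% unique windows, Rpl14 50.7%, Rps27 36.9% and Rpl10 7.9%. Rpl9, at a mean of 1397 RPKM, had 6.7%. Across the 79 members Spearman's rho between mean RPKM and the share of unique windows was 0.03. The windows were compared with annotated transcripts only, which leaves out copies in the genome without annotation. Whether reads that match several places account for the low levels was not tested. How the authors assigned such reads is not stated in the labels or headers, so levels between members are uncertain, and comparisons of 1 member between libraries are safer.

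**Figure D2:**
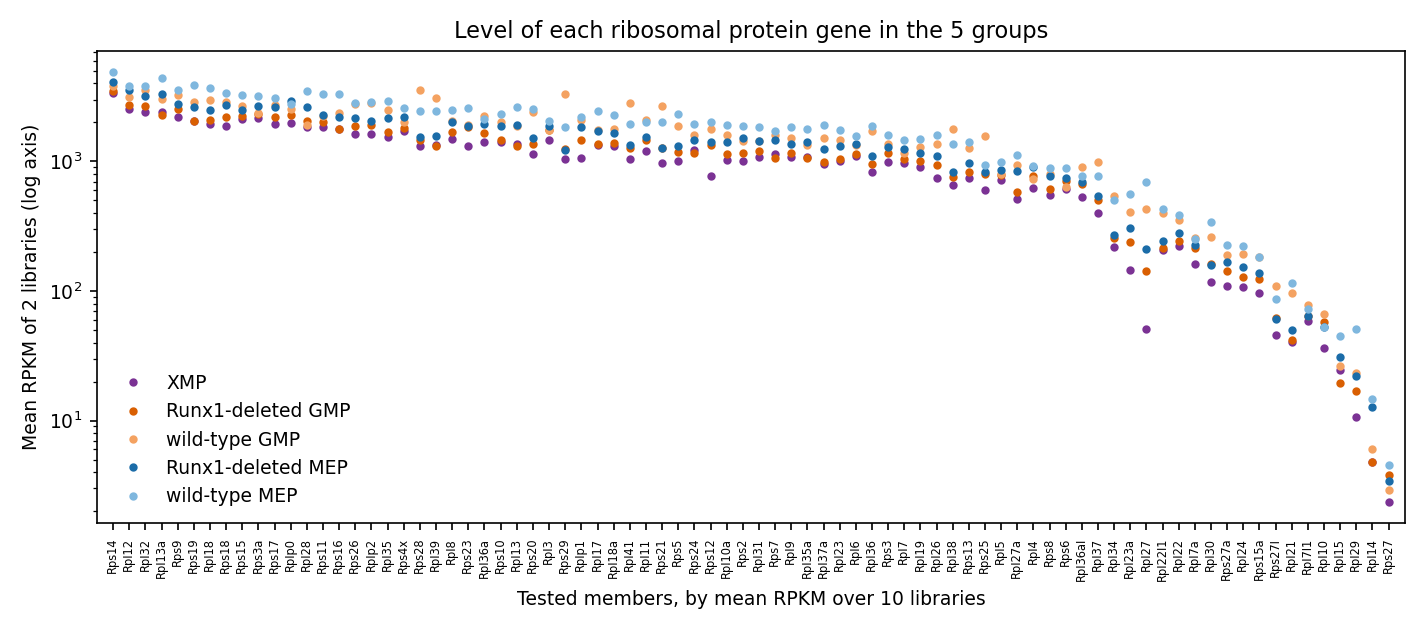
Mean RPKM of 2 libraries (log axis) for each of the 80 tested members, ordered by the mean over 10 libraries, with 1 colour per group. Most members lie near or above 1000 RPKM with the mean of wild-type MEP on top and that of XMP at the bottom. Wild-type MEP 1 was the highest library for 68 of 80 members. Its member median was 2437 RPKM, against 1286 RPKM in wild-type MEP 2. The 3 members at the right end, Rpl29, Rpl14 and Rps27, average 24.8, 8.57 and 3.40 RPKM.

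Paralogs that can replace a ribosomal protein were measured beside their partners. Rpl22l1, which in mouse is raised when its partner Rpl22 is missing, had 245 and 173 RPKM in XMP, 204 and 228 RPKM in Runx1-deleted GMP, 413 and 394 RPKM in wild-type GMP, 249 and 234 RPKM in Runx1-deleted MEP, and 570 and 296 RPKM in wild-type MEP. Rpl22 had 237 and 211 RPKM in XMP, 242 and 248 RPKM in Runx1-deleted GMP, 330 and 381 RPKM in wild-type GMP, 292 and 271 RPKM in Runx1-deleted MEP, and 496 and 281 RPKM in wild-type MEP. Both members of this pair were lower in every Runx1-deleted GMP library than in every wild-type GMP library. The log2 change of Rpl22l1 was -0.90 ± 0.29 (SE) in GMP and -0.77 ± 0.29 in MEP, and neither passed the test (limma, adjusted p = 0.105 in GMP and 0.152 in MEP). With lanes 4 and 5 alone the MEP value was -0.29. With a lane term, which rests on the difference between the wild-type MEP libraries alone, the GMP value turned to 0.04.

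Rps27l, a p53-inducible paralog, had 54.6 and 36 RPKM in XMP, 61.3 and 62.4 RPKM in Runx1-deleted GMP, 94.7 and 126 RPKM in wild-type GMP, 73.8 and 47.7 RPKM in Runx1-deleted MEP, and 111 and 62.1 RPKM in wild-type MEP. It was measured above its partner Rps27 in every library, with the limit on Rps27 given above. The other pairs were led by the common gene: Rpl36a averaged 1883 RPKM, against 714 RPKM for Rpl36al, Rpl7 averaged 1180 RPKM, against 67.4 RPKM for Rpl7l1, and Rpl39 averaged 1955 RPKM, against 0.258 RPKM for Rpl39l. Rps4x averaged 2070 RPKM. Rpl7l1 was also the member that differed least between libraries, with 1.53 times between its highest and lowest value, whereas the median over members was 2.56 times.

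In XMP, nearly every member was measured below Runx1-deleted MEP, the population from the same marrow that shares CD150. The median log2 change over members was -0.40, against 0.05 over all genes tested, and 80 of 80 were below 0. With quantile normalization the median was -0.09, with 65 of 80 below 0, and with the length trend of each library removed it was -0.24. Both XMP libraries were below both Runx1-deleted MEP libraries for 76 of 80 members, where 20.1% of all genes tested showed this, and the 4 others were Rpl22l1, Rpl34, Rpl7l1 and Rps27l. The medians were -0.38 over the small subunit, -0.40 over the large subunit and -0.56 over the P stalk. Single members did not pass the test: 0 of 80 were called (limma, Benjamini-Hochberg over 10905 genes, adjusted p under 0.05), where 7.74% of all genes were, and 3 members had an unadjusted p under 0.05, where 19.8% of all genes had. Leaving out wild-type MEP 1 or wild-type MEP 2, which are in neither group, gave 5 calls, all lower in XMP, where 4.33% and 4.35% of all genes were called lower.

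With the 7 libraries of lanes 4 and 5 alone, 10 members were called, all lower in XMP than in Runx1-deleted MEP, where 4.7% of all genes tested were called lower. They were Rps12, Rps15a, Rps18 and Rps27a of the small subunit, Rpl4, Rpl14, Rpl27 and Rpl27a of the large subunit, and Rplp0 and Rplp1 of the stalk that recruits elongation factors. Rplp1 had 1205 and 918 RPKM in XMP, against 2130 and 1592 RPKM in Runx1-deleted MEP, with a log2 change of -0.81 ± 0.20 (limma, adjusted p = 0.0459). Rplp0 had 2046 and 1926 RPKM in XMP, against 3023 and 2828 RPKM in Runx1-deleted MEP, and fell by 0.56 ± 0.13 on the log2 scale (limma, adjusted p = 0.0352). Rps27a, made as a fusion of ubiquitin and a small subunit protein, had 114 and 107 RPKM in XMP, against 182 and 156 RPKM in Runx1-deleted MEP (-0.61 ± 0.13, limma, adjusted p = 0.0289). The groups did not overlap for any of these 3. With XMP 1 as the only XMP library, lane 5 alone, 1 of 80 was called, Rpl14, where 1.9% of all genes were called lower, and 77 of 80 were below both Runx1-deleted MEP libraries, where 25.2% of all genes tested were.

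Against Runx1-deleted GMP the members of XMP stood closer. The median log2 change was -0.17, against 0.05 over all genes tested, and 73 of 80 were below 0. Without XMP 2 the median was -0.09, with 62 of 80 below 0, and without XMP 1 it was -0.26. It was -0.10 on the TPM scale and -0.01 with quantile normalization, where 42 of 80 were below 0. Both XMP libraries were below both Runx1-deleted GMP libraries for 48 of 80, where 28.6% of all genes tested were. None was called with 10 libraries (limma), where 19.7% of all genes were, and 2 had an unadjusted p under 0.05, where 28.2% had. With lanes 4 and 5 alone 3 small subunit members were called, all lower in XMP: Rps12, Rps23, a protein of the decoding centre, and Rps27, where 12.7% of all genes were called lower. Rps23 had 1415 and 1227 RPKM in XMP, against 1855 and 1864 RPKM in Runx1-deleted GMP (-0.50 ± 0.14, limma, adjusted p = 0.0412), and in lane 5 alone it was not called (adjusted p = 0.196). Lane 5 alone called 2 members lower in XMP than in Runx1-deleted GMP, Rps12 and Rps27, where 9.75% of all genes were called lower. Rpl15 was the member farthest above the median change, at 0.30 ± 0.24, and was not called (adjusted p = 0.498).

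Rps12, a small subunit protein, was measured lower in XMP than in both other Runx1-deleted populations. It had 814 and 723 RPKM in XMP, 1320 and 1346 RPKM in Runx1-deleted GMP, 1705 and 1864 RPKM in wild-type GMP, 1500 and 1328 RPKM in Runx1-deleted MEP, and 2745 and 1316 RPKM in wild-type MEP. The 2 XMP libraries were the lowest of all 10, and the other 8 began at 1316 RPKM. The log2 change was -0.80 ± 0.34 against Runx1-deleted GMP and -0.88 ± 0.34 against Runx1-deleted MEP with 10 libraries, and neither was called (limma, adjusted p = 0.144 and 0.164). In lanes 4 and 5 alone the same changes had errors of 0.14 each and both were called (limma, adjusted p = 0.00607 and 0.0108). In lane 5 alone, where XMP 1 is the only XMP library and the error comes from other groups, the change against Runx1-deleted GMP was -0.71 ± 0.18 (limma, adjusted p = 0.0371) and that against Runx1-deleted MEP -0.79 ± 0.18 (limma, adjusted p = 0.0519). With each library centred on its member median, Rps12 was still lower in XMP than in Runx1-deleted GMP (-0.64 ± 0.18, limma, adjusted p = 0.0119) and was not called against Runx1-deleted MEP (-0.49 ± 0.18, adjusted p = 0.148). Only 9.9% of its windows are unique, so reads of near-identical copies may be counted with it.

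Rpl27, a large subunit protein mutated in some patients with Diamond-Blackfan anemia, varied more than any other tested member, 23.4 times between its highest and lowest library. It had 53.3 and 47.7 RPKM in XMP, 180 and 104 RPKM in Runx1-deleted GMP, 312 and 548 RPKM in wild-type GMP, 304 and 119 RPKM in Runx1-deleted MEP, and 1114 and 264 RPKM in wild-type MEP. XMP was lowest throughout, and replicates of 1 group differed by up to 4.22 times. The log2 change of XMP was -1.42 ± 0.61 against Runx1-deleted GMP and -1.89 ± 0.61 against Runx1-deleted MEP, with no call for either with 10 libraries (limma, adjusted p = 0.147 and 0.0913). Lanes 4 and 5 alone gave a call against Runx1-deleted MEP (limma, adjusted p = 0.0393) and none against Runx1-deleted GMP (adjusted p = 0.0616). With libraries centred on their member median both were called (-1.27 ± 0.33, limma, adjusted p = 0.00718, and -1.50 ± 0.33, adjusted p = 0.00515). On that scale 3.49% of all genes were called lower in XMP than in Runx1-deleted GMP and 0.321% lower than in Runx1-deleted MEP.

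**Figure D3:**
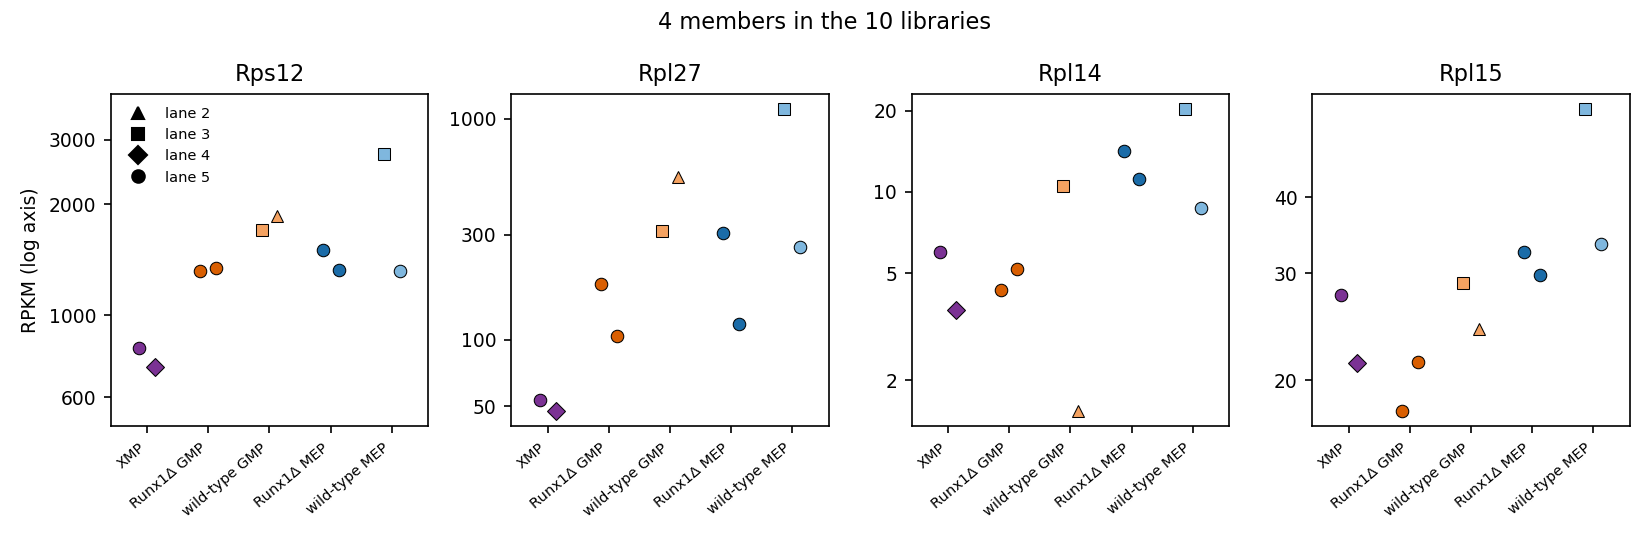
RPKM (log axes, which differ between panels) of Rps12, Rpl27, Rpl14 and Rpl15 in the 10 libraries, with colour for the group and shape for the lane. XMP lies lowest for Rps12, at 814 and 723 RPKM, and for Rpl27, at 53.3 and 47.7 RPKM, and the lane 3 library of wild-type MEP lies highest in all 4 panels.

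Runx1-deleted GMP and Runx1-deleted MEP were both sequenced in lane 5, in all 4 libraries. Members were measured lower in Runx1-deleted GMP: the median log2 change was -0.24, against -0.05 over all genes tested, 74 of 80 were below 0, and the 2 GMP libraries were below the 2 MEP libraries for 57 of 80, where 36% of all genes tested were. The median was -0.16 without Runx1-deleted MEP 1, -0.15 with the length trend removed and -0.14 with quantile normalization. No member was called with 10 libraries (limma), where 24.5% of all genes were, and 1 had an unadjusted p under 0.05, where 33.4% had. With lanes 4 and 5 alone 4 were called, all lower in Runx1-deleted GMP, where 15.2% of all genes were called lower: Rpl13a, Rpl14, Rpl15 and Rps7.

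Rpl15, a large subunit protein and a Diamond-Blackfan anemia gene, had 17.8 and 21.5 RPKM in Runx1-deleted GMP, against 32.5 and 29.7 RPKM in Runx1-deleted MEP. The change was -0.64 ± 0.24 with 10 libraries (limma, adjusted p = 0.0783) and -0.64 ± 0.16 with lanes 4 and 5 (limma, adjusted p = 0.0243). Wild-type GMP had 28.9 and 24.3 RPKM, against 55.9 and 33.5 RPKM in wild-type MEP, with no overlap (-0.69 ± 0.24, limma, adjusted p = 0.0658), and this value was -0.33 without wild-type MEP 1 and -1.05 without wild-type MEP 2, where it was called (limma, adjusted p = 0.00576). Rpl14 had 4.32 and 5.19 RPKM in Runx1-deleted GMP, against 14.2 and 11.2 RPKM in Runx1-deleted MEP (-1.24 ± 0.22 with lanes 4 and 5, limma, adjusted p = 0.00525). In XMP, Rpl14 had 5.98 and 3.66 RPKM, again below Runx1-deleted MEP (-1.25 ± 0.22, limma, adjusted p = 0.0141). Wild-type GMP held the lowest Rpl14 value, 1.54 RPKM in replicate 2, beside 10.5 RPKM in replicate 1, and wild-type MEP had 20.4 and 8.74 RPKM (-1.42 ± 0.57, limma, adjusted p = 0.112).

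Rpl13a, also known as part of a complex that silences inflammatory mRNAs, had 2184 and 2353 RPKM in Runx1-deleted GMP, against 3333 and 3260 RPKM in Runx1-deleted MEP (-0.54 ± 0.13 with lanes 4 and 5, limma, adjusted p = 0.0191). XMP was close to Runx1-deleted GMP for this gene, at 2522 and 2323 RPKM. Rps7, a small subunit protein that can bind MDM2, had 1022 and 1123 RPKM in Runx1-deleted GMP, against 1520 and 1431 RPKM in Runx1-deleted MEP (-0.46 ± 0.13, limma, adjusted p = 0.0328), and with lane 5 alone its adjusted p was 0.0569. Lane 5 alone called 3 of the 4, Rpl13a, Rpl14 and Rpl15, where 14.4% of all genes were called lower. Once libraries were centred on their member median none of the 80 was called in this comparison, where 12.1% of all genes were.

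**Figure D4:**
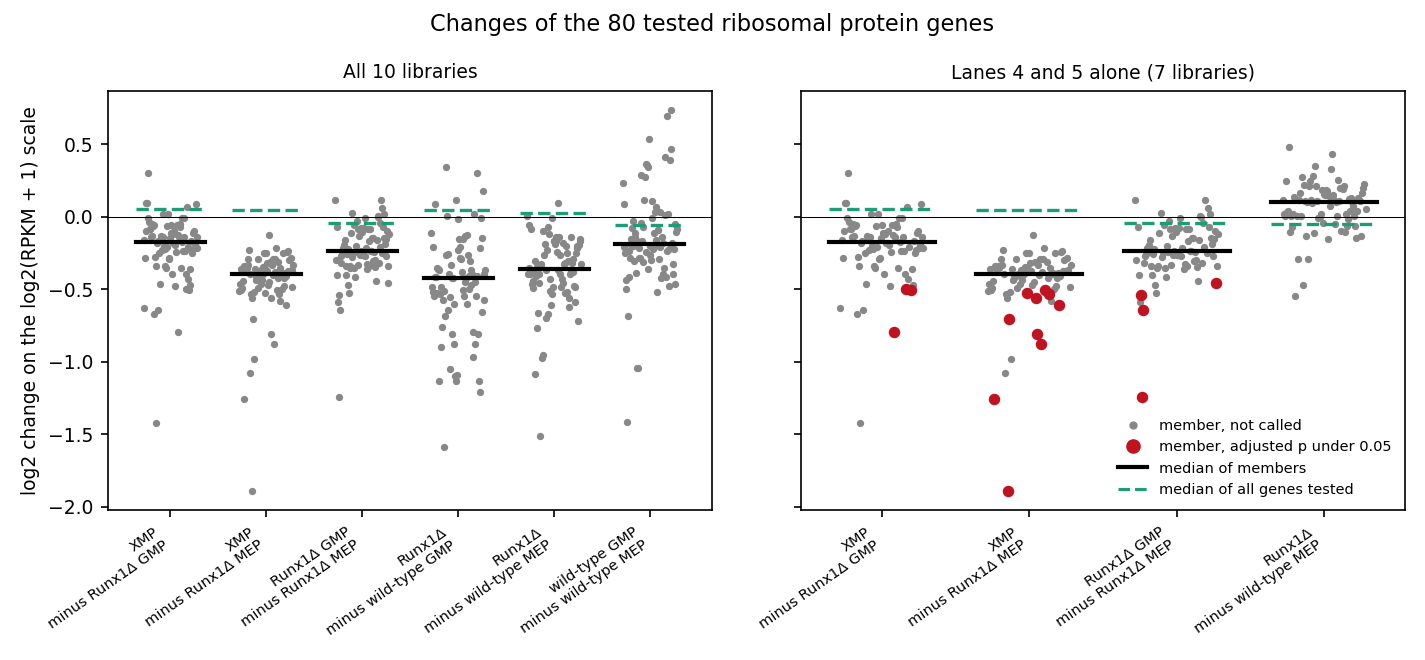
Log2 change of each of the 80 tested members in 6 comparisons with all 10 libraries (left) and in the 4 that lanes 4 and 5 allow (right), in log2(RPKM + 1). Black lines are the member medians, dashed green lines the medians of all genes tested, and red points the members called. In XMP minus Runx1-deleted MEP all points lie below 0, and in Runx1-deleted minus wild-type MEP the member median is -0.36 on the left and 0.10 on the right.

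For the effect of Runx1 in GMP, members were measured lower in Runx1-deleted cells, but genotype and lane cannot be told apart. The median log2 change was -0.42, against 0.05 over all genes tested, and 73 of 80 were below 0. Both Runx1-deleted GMP libraries were below both wild-type GMP libraries for 62 of 80, where 29.4% of all genes tested were. No member was called (limma), where 5.22% of all genes were, and 13 had an unadjusted p under 0.05, where 22.8% had. Without wild-type MEP 1 or without wild-type MEP 2, both outside this comparison, 11 were called, all lower, where 5.02% and 5.03% of all genes were called lower. The 18 that did not separate included Rpl3, Rpl4, Rpl5, Rplp0, Rps14 and Rps6. With a term for lanes 2 and 3 in the fit the median became 0.41. Only the wild-type MEP libraries differ in that term within a group. It therefore carries the difference between these libraries into GMP and cannot set lane apart from genotype there. With the length trend of each library removed the median became -0.00. On the TPM scale it was -0.16 and with quantile normalization -0.04.

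The members farthest below the median in GMP included the shortest genes. Rps29 had 1184 and 1299 RPKM in Runx1-deleted GMP, against 1644 and 5004 RPKM in wild-type GMP (-1.21 ± 0.48, limma, adjusted p = 0.172). Rpl39 had 1296 and 1326 RPKM in Runx1-deleted GMP, against 1933 and 4298 RPKM in wild-type GMP (-1.14 ± 0.43, limma, adjusted p = 0.153). In both genes wild-type GMP 2 was more than 2 times wild-type GMP 1. Rpl21, at 1856 bp, is longer: it had 41.6 and 42.0 RPKM in Runx1-deleted GMP, against 71.7 and 121 RPKM in wild-type GMP (-1.14 ± 0.32, limma, adjusted p = 0.0699), the smallest adjusted p of any member there. Rpl27 had a change of -1.59 ± 0.61 (limma, adjusted p = 0.155), and with the lane term, set by the wild-type MEP libraries alone, 0.48.

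In MEP, members were lower in Runx1-deleted cells with all libraries and not so within lane 5. With 10 libraries the median log2 change was -0.36, against 0.03 over all genes tested, 78 of 80 were below 0, 0 were called (limma) where 8% of all genes were, and 4 had an unadjusted p under 0.05, where 22.1% had. In lane 5 the Runx1-deleted MEP libraries and wild-type MEP 2 gave a median of 0.10, against -0.05 over all genes tested. There 43 of 80 members were above the wild-type library in both Runx1-deleted libraries, where 27.3% of all genes tested were, 8 were below it in both, where 41.1% were. With lanes 4 and 5 none of the 80 was called (limma), where 5.8% of all genes were, and 1 had an unadjusted p under 0.05, where 19.6% had. The direction of the whole set in MEP thus rests on wild-type MEP 1, the lane 3 library. Without wild-type MEP 2, which leaves that library as the only wild-type one, 46 members were called lower, where 9.52% of all genes were. That test takes the spread from the other groups and compares 1 library whose replicate lay far from it. With quantile normalization the median in MEP was -0.05, and on the TPM scale -0.20.

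Rpl21 kept its direction in MEP. It had 52.0 and 47.4 RPKM in Runx1-deleted MEP, against 156 and 73.0 RPKM in wild-type MEP, with no overlap (-1.09 ± 0.32, limma, adjusted p = 0.0649, and -0.55 ± 0.15 with lanes 4 and 5, adjusted p = 0.095). Rpl30, a large subunit protein, had 172 and 148 RPKM in Runx1-deleted MEP, against 488 and 196 RPKM in wild-type MEP (-0.95 ± 0.36, limma, adjusted p = 0.15, and -0.29 ± 0.17 with lanes 4 and 5, adjusted p = 0.426). Rpl27 had -1.51 ± 0.61 (limma, adjusted p = 0.176) and -0.47 ± 0.55 with lanes 4 and 5 (adjusted p = 0.743). The difference between the effects in GMP and MEP had a member median of -0.09, against 0.01 over all genes tested, and 0 of 80 members were called (limma), where 1.74% of all genes were. An unadjusted p under 0.05 was reached by 0 members, where 10.1% of all genes reached it.

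The wild-type GMP and wild-type MEP libraries overlapped for 76 of 80 members. The median log2 change was -0.19, against -0.06 over all genes tested, 60 of 80 were below 0, and only 3 members were lower and 1 higher without overlap, where 27.1% and 22% of all genes tested were. No member was called (limma), where 21.6% of all genes were, and 2 had an unadjusted p under 0.05, where 31.5% had. Without wild-type MEP 2, 32 were called lower in wild-type GMP, where 10.7% of all genes were, again in a test of wild-type MEP 1 alone with the spread of the other groups. Rps29 lay highest, at 0.74 ± 0.48 (limma, adjusted p = 0.349), and Rpl28 had 2966 and 876 RPKM in wild-type GMP, against 4546 and 2429 RPKM in wild-type MEP (-1.04 ± 0.51, limma, adjusted p = 0.189).

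The replicates show how far a single wild-type library moves these genes. Wild-type MEP 1 was the highest library for 68 of 80 members and exceeded wild-type MEP 2 for 80 of 80, with a median ratio of 1.82 times. Wild-type GMP 2 exceeded wild-type GMP 1 by a median of 2.16 times for the 9 members shorter than 450 bp (Rps28, Rps29, Rpl38, Rpl39, Rps21, Rpl36, Rpl41, Rplp2 and Rps26), while the 71 others had a median ratio of 0.983 times. Rps28 had 5034 RPKM in wild-type GMP 2 and 2066 RPKM in wild-type GMP 1. Replicates of the other 3 groups were closer, with median ratios of 1.12 times in XMP, 0.945 times in Runx1-deleted GMP and 1.10 times in Runx1-deleted MEP. An XMP library was the lowest of all 10 for 68 of 80 members.

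**Figure D5:**
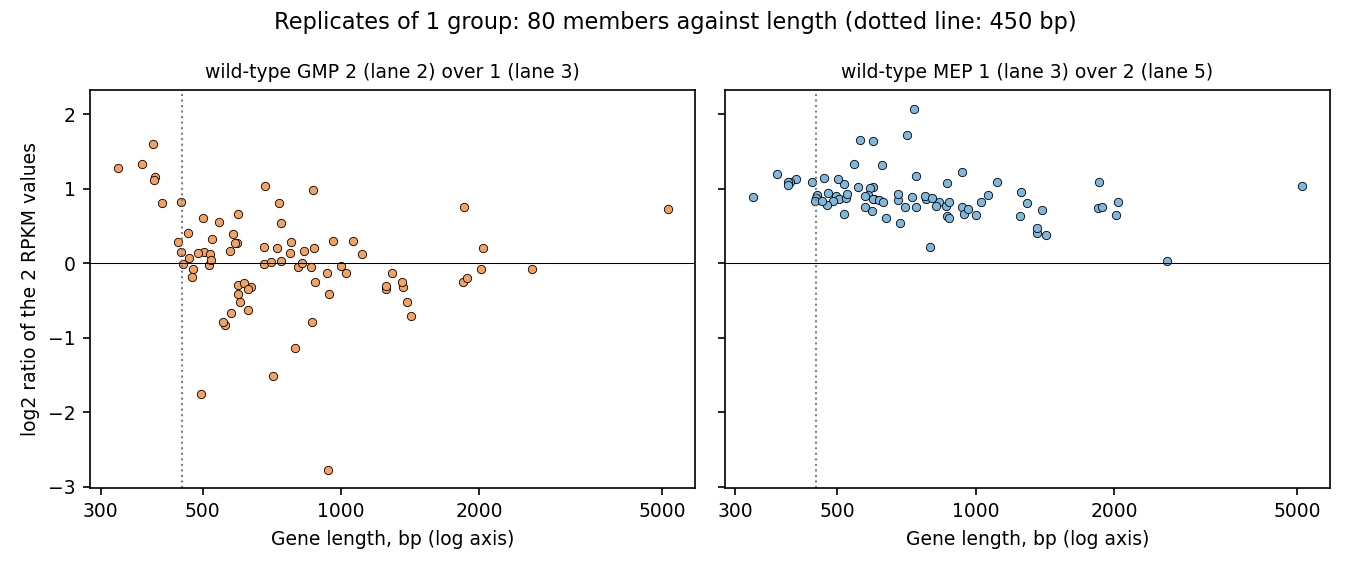
Log2 ratio of the 2 wild-type GMP libraries (left) and of the 2 wild-type MEP libraries (right) for each of the 80 tested members against gene length in bp (log axis). On the left the 9 members below the dotted line at 450 bp have a median of 1.11 and the 71 others one of -0.02, and on the right all 80 lie above 0 with a median of 0.87.

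The 19 Diamond-Blackfan anemia genes followed the other members. Their median log2 change was -0.39 in XMP minus Runx1-deleted MEP, -0.14 in XMP minus Runx1-deleted GMP, -0.27 between Runx1-deleted GMP and MEP, -0.50 for Runx1 deletion in GMP and -0.35 in MEP, and 0 of 19 were called in any of these with 10 libraries (limma). With lanes 4 and 5, 2 of 19 were called lower in XMP than in Runx1-deleted MEP, Rpl27 and Rps15a, where 4.7% of all genes were. In XMP against Runx1-deleted GMP 1 of 19 was, Rps27, where 12.7% of all genes were, and in Runx1-deleted GMP against Runx1-deleted MEP 2 of 19 were, Rpl15 and Rps7, where 15.2% were. Rpl5 and Rpl11, which with 5S rRNA restrain MDM2, had their lowest lane 5 value in XMP: Rpl5 ranged from 725 RPKM in XMP 1 to 868 RPKM in Runx1-deleted MEP 2, and Rpl11 from 1262 RPKM in XMP 1 to 1685 RPKM in Runx1-deleted MEP 1.

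Genes near the ribosome by function were compared by the same fit. Rpsa and Gnb2l1, which encode ribosomal proteins outside the naming rule, were called lower in XMP than in Runx1-deleted MEP with lanes 4 and 5. The 19 other genes with TOP mRNAs, most of them elongation or initiation factors, had a median of -0.33 in XMP minus Runx1-deleted MEP, and 2 were called lower with lanes 4 and 5, the elongation factor gene Eef1b2 and Npm1, which encodes a nucleolar protein. These TOP genes are longer, with a median of 1918 bp. For Runx1 deletion they had medians of -0.09 in GMP and -0.10 in MEP, nearer 0 than the members. The 76 genes of the mitochondrial ribosome, at a median of 1053 bp, had medians of -0.33 in XMP minus Runx1-deleted MEP and -0.37 for Runx1 deletion in GMP, and the 77 tested nuclear genes of the respiratory chain, at 659 bp, had -0.27 and -0.57. Other lists of short genes thus lay below 0 with the members in both comparisons, and whether length accounts for this was not tested.

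The authors' deposited table gives Baggerley's test, which treats the libraries of 2 groups as samples of proportions. Of the 84 members, 51 had in the authors' deposited table a corrected p-value under 0.05 between XMP and Runx1-deleted MEP, all 51 lower in XMP, where 1.64% of all 23240 genes did in either direction. Between XMP and Runx1-deleted GMP the authors' deposited table has 23 members, 21 lower and 2 higher in XMP, where 3.74% of all genes did, and Rps12 had the smallest value in both, 6.01e-62 and 8.09e-55. The authors' deposited table has 36 members for Runx1-deleted MEP against Runx1-deleted GMP, all higher in MEP, where 4.6% of all genes did. For Runx1 deletion in GMP it has 6 members in the authors' deposited table, Rpl18, Rpl22l1, Rpl27a, Rpl35, Rpl5 and Rplp1, all lower in Runx1-deleted cells, where 0.925% of all genes did, and in MEP 1, Rplp0, higher in Runx1-deleted cells, where 0.775% did.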

How the data were processed

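The deposited table gives RPKM per gene and library, and p-values with FDR-corrected p-values of Baggerley's test, per the file headers all from the authors' own processing. The submitters' processing notes name the genome build mm9. Aligner, counter and annotation were not given in the sources used here. RNA was extracted with TriFast and libraries were made with either of 2 kits per the labels' protocols. Of the 10 libraries, groups came from the sample labels and lanes from the column headers. Reads and gene lengths were worked back from the RPKM values (19335 of 19336 genes above 0 gave whole reads within 0.01), and this was tested on simulated data (1209 of 1210 lengths right).

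The 10905 of 23240 genes that reached 1 RPKM in 2 or more libraries were fitted as log2(RPKM + 1) with limma 3.58.1 in R 4.3.3 (lmFit, contrasts.fit, eBayes with trend), with 1 mean per group, and p-values were Benjamini-Hochberg adjusted over all genes tested. The log2 changes understate those of low genes. On simulated data for Runx1-deleted minus wild-type GMP, 91 of 100 genes changed 2-fold and 100 of 100 changed 4-fold were called. Of the 10905 genes simulated, 11 of the unchanged ones were called. The simulated noise was drawn for each gene alone, with the usual spread of all genes at its level. Members moved together between replicates, so these rates do not hold for them, and an absence of calls does not exclude a 2-fold change. Named genes were the 3 markers, paralogs and their partners, the 3 highest and 3 lowest members, called members, those farthest from the member median, and Diamond-Blackfan genes. Rps14 is printed without sequence. The members and lists were chosen with earlier results of these data known. Alternatives were other scalings, filters and pseudocounts, lane subsets and a lane term, removal of a length trend, blocks, and leaving out libraries.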

Additional observations from a re-analysis of the deposited data

How the results depend on the processing

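With 10 libraries and the fit described above no member was called in any of the 7 comparisons. The count moved with the scaling, the filter and the terms of the fit, and with how the libraries were pooled. In lanes 4 and 5 alone 4, 3 and 10 members were called for Runx1-deleted GMP minus Runx1-deleted MEP, XMP minus Runx1-deleted GMP and XMP minus Runx1-deleted MEP, all lower, and leaving out wild-type GMP 2 and wild-type MEP 1 together gave the same 3 counts and 2 for Runx1 deletion in GMP. In lane 5 alone the 3 counts were 3, 2 and 1, with lane as a term 2, 2 and 5, with the length trend removed 1, 1 and 4, with quantile normalization 2, 1 and 2, and with only the groups compared 3, 5 and 1. The TPM scale gave 1 call each for the first 2 of these, no filter 1 each, both Rpl3l, higher in Runx1-deleted GMP and under 1 RPKM throughout, and centring on the member median 0, 2 and 1. Over these settings 11% to 33.2% of all genes were called in the first comparison, 7.66% to 29.5% in the second and 2.09% to 14.8% in the third. For Runx1 deletion in GMP, only the groups compared gave 9 calls, all lower, where 17.7% of all genes were called. For wild-type GMP minus wild-type MEP, the TPM scale gave 1 call (18.1% of all genes), centring 5, of which 1 lower (9.15%), the lane term 32, all lower (30.4%), the length trend removed 3, of which 1 lower (30.4%), and quantile normalization 6, all lower (25.2%).

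Leaving out each library in turn moved the counts over 0 to 2 for Runx1-deleted GMP minus Runx1-deleted MEP, 0 to 11 for Runx1 deletion in GMP, 0 to 46 in MEP, 0 to 32 between the wild-type groups, 0 to 2 for XMP minus Runx1-deleted GMP and 0 to 5 for XMP minus Runx1-deleted MEP. Without wild-type MEP 1 there were 11 calls for Runx1 deletion in GMP, and without wild-type MEP 2 there were 11 in GMP, 46 in MEP and 32 between the wild-type groups. The cause was not tested beyond the fewer libraries each setting uses.

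Member medians turned sign for Runx1 deletion in GMP with the lane term (0.41), which rests on the wild-type MEP libraries alone. In MEP the median turned to 0.10 without wild-type MEP 1, alone or together with wild-type GMP 2. It was also 0.10 with lane 5, with lanes 4 and 5 and with the lane term. All these settings compare Runx1-deleted MEP with wild-type MEP 2 alone, so they give 1 estimate and are not separate checks. With the length trend removed the MEP median was 0.002. Without wild-type MEP 1 the median between the wild-type groups was 0.27, and without both libraries 0.25. The difference of the Runx1 effects turned to 0.02 with quantile normalization and 0.01 without Runx1-deleted MEP 1. It was 0.34 with the lane term and 0.34 without wild-type MEP 2. These 2 settings give the same estimate here, and also between the wild-type groups, with wild-type MEP 1 as the only wild-type MEP library. The range of the difference over libraries left out was -0.51 to 0.34. In MEP that range was -0.80 to 0.10, and between the wild-type groups -0.61 to 0.27. The medians of both XMP comparisons and of Runx1-deleted GMP minus Runx1-deleted MEP stayed below 0 under the alternatives run other than centring on the member median, which sets these medians near 0 by construction and is left out of the sign turns above.

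Of 704 values of named members under alternatives, 582 kept their direction and side of the threshold, 116 became called and 6 turned sign: with the lane term Rpl27 (0.48), Rpl22l1 (0.042) and Rps27l (0.021) for Runx1 deletion in GMP, without wild-type GMP 2 and wild-type MEP 1 Rpl14 (0.24) and Rpl28 (0.29) between the wild-type groups, and without wild-type GMP 2 Rps29 there (-0.064). Rps29 ranged from -0.064 to 1.54 and Rpl28 from -1.92 to -0.16 over single libraries left out. The 704 values belong to 29 results of named members. With 10 libraries no member was called, so a value could only become called. Named members included called ones and those farthest from the member median, so these counts do not hold for the members at large.

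Replicate numbers were given no meaning by the labels, and the correlation of replicate 1 deviations between groups ran from -0.475 to 0.782 over 10905 genes. With the replicate block 2 members were called between the wild-type groups, where 21.2% of all genes were. For XMP minus Runx1-deleted MEP 1 was called, where 7.35% of all genes were. In the 5 other comparisons 0 were called, where 1.59% to 23.8% of all genes were. The library number block is a crossed pairing, chosen after the data were seen like the setting that leaves out 2 libraries. It gave 1 call for Runx1-deleted GMP minus Runx1-deleted MEP (27% of all genes) and 1 for Runx1 deletion in GMP (6.49%). Between the wild-type groups it gave 3 calls (23.8%), and elsewhere 0 (1.93% to 21.7%). Every tested member had at least 27 reads in every library, and what the kits and lanes contribute to the counts of calls was not tested.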
